A study of Homo sapiens with 8 samples.

Results

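The genes described here are 10 members of the semaphorin family, 4 of class 6 (SEMA6A, SEMA6B, SEMA6C and SEMA6D) and 6 of class 3 (SEMA3A, SEMA3B, SEMA3C, SEMA3D, SEMA3E and SEMA3F), out of 22428 genes with a named probe on the array. SEMA6D and SEMA6C were chosen because their signal was higher with simvastatin in OVSAHO, so their values in that contrast are a description and were not tested there. The other 8 belong to the same classes. Together the 10 genes had 12 probes, and SEMA6B and SEMA6C had more than 1. The probe with the brightest mean signal stands for each gene.

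Total RNA of OVSAHO and KURAMOCHI, both established cell lines of serous ovarian carcinoma, was measured on 8 one-color arrays in 4 groups of 2. The groups were OVSAHO with simvastatin, OVSAHO with L-778123, KURAMOCHI with simvastatin and KURAMOCHI with L-778123, all grown in RPMI-1640 with fetal bovine serum. Simvastatin inhibits HMG-CoA reductase, the enzyme at the head of the mevalonate pathway, and L-778123 inhibits the farnesyl and geranylgeranyl transferases that attach products of that pathway to proteins. Arrays of cells without either drug were not analysed here, so a difference between the drugs does not show which of them moved a gene, and the sources used here give no concentration or time for these cultures. Each line is a single model, the labels do not say whether the 2 arrays of a group came from separate cultures, and p-values then measure only the spread between arrays, which may be technical. All arrays lay on 1 slide with each group in positions of its own, so that effects of place on the slide and of group cannot be told apart.

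The 10 markers of serous carcinoma epithelium that were checked, PAX8 and MUC16 among them, were well above background on all 8 arrays. Of 16 markers of leukocytes, endothelium, fibroblasts, neurons and glia, 15 had a probe and 6 were above background on all arrays. These were 3 of 4 for leukocytes, 2 of 3 for endothelium, 0 of 4 for fibroblasts and 1 of 4 for neurons and glia. PECAM1, DCN and GFAP were above background on no array. Between 51.8% and 57.5% of the 58162 probes were well above background on an array, and the log2 signals of the 2 arrays of a group correlated at 0.995 to 0.996. Levels below are log2 intensities relative to the 75th percentile of the array, so that 0 is the brightness of that percentile. Levels of different probes cannot be set against each other. In RNA of a whole culture, a change in every cell and a change in a share of the cells cannot be told apart.

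Semaphorins are guidance proteins that share a sema domain and were first known for steering growing axons. Class 3 members are secreted, are cut by furin-like convertases, and mostly act through a neuropilin paired with a class A plexin, while class 6 members are transmembrane proteins that bind class A plexins directly and can also signal back into the cell that carries them. Plexins carry an intracellular GTPase-activating domain, and several class 3 members are studied in ovarian and other carcinomas as inhibitors of growth or of vessel formation.

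SEMA6D, a transmembrane ligand of plexin-A1 known from heart development, was higher with simvastatin than with L-778123 in both cell lines. In OVSAHO its level was -1.69 and -1.86 on the simvastatin arrays and -3.81 and -3.64 on the L-778123 arrays. In KURAMOCHI it was -1.77 and -1.90 with simvastatin and -3.70 and -3.37 with L-778123. The 4 simvastatin arrays lay within a narrow band above the 4 L-778123 arrays, with no overlap in either line. The log2 difference in KURAMOCHI was 1.70 (SE 0.14), or 3.26-fold, with an adjusted p of 7.89e-04. The gene was picked here on OVSAHO values, but it is also on a list the study selected from these samples for a rise in OVSAHO and a ratio between the cell lines near 1 with simvastatin, so the KURAMOCHI value is not independent of that choice. In OVSAHO the log2 difference was 1.95 (SE 0.14), or 3.87-fold, and was not tested. With a normexp background correction the log2 differences were 0.93 in KURAMOCHI, which then missed the 2-fold threshold, and 0.99 in OVSAHO. The probe was above background on all 8 arrays and is named by 1 of the 9 transcripts that RefSeq lists for the gene. Which of the others it also detects was not checked.

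SEMA6C, another transmembrane member, had the lowest signal with L-778123 in OVSAHO. Its level in OVSAHO was 3.44 and 3.41 with simvastatin and 1.49 and 1.68 with L-778123. In KURAMOCHI it was 3.37 and 3.27 with simvastatin and 2.94 and 2.81 with L-778123. With simvastatin the cell lines were 1.08-fold apart, and with L-778123 the OVSAHO arrays were 2.44-fold lower. The log2 difference between the drugs in OVSAHO was 1.84 (SE 0.09), or 3.58-fold, as a description. In KURAMOCHI the log2 difference was 0.45 (SE 0.09), or 1.36-fold, with an adjusted p of 0.0158, which is below the 2-fold threshold. A dimmer probe, named by another transcript of SEMA6C, gave smaller log2 differences of 0.35 in OVSAHO and 0.15 in KURAMOCHI. The median of both probes gave 1.09 in OVSAHO.

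The promoter windows of these genes are shown because SEMA6C and SEMA6D were the members chosen for a higher signal with simvastatin. The sequences are from RefSeq on GRCh38.p14 and span 250 bases before to 50 bases after an annotated start, 5′ to 3′ on the strand of the gene. For SEMA6C the window was chr1:151146582-151146881 on the minus strand, and for SEMA6D the 3 windows on the plus strand were chr15:47183839-47184138, chr15:47717255-47717554 and chr15:47718239-47718538. The arrays do not tell which start of SEMA6D was used. Capitals mark GGGCGG, the GC box bound by SP family factors, and CACCC, a core bound by KLF family factors, each on either strand. No GC box shared a base with a KLF core in these windows.
SEMA6C: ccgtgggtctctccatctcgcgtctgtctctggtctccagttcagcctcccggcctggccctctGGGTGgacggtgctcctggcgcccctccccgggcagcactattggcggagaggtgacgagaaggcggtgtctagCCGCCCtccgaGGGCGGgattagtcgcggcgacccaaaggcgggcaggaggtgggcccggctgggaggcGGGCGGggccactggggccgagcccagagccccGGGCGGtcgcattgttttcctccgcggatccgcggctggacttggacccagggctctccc
SEMA6D start 1: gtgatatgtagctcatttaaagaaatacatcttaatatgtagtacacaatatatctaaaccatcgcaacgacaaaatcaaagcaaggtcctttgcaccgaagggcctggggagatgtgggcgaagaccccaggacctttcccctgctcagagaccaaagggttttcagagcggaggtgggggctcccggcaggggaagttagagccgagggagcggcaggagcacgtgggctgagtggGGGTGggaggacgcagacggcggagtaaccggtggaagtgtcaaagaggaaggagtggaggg
SEMA6D start 2: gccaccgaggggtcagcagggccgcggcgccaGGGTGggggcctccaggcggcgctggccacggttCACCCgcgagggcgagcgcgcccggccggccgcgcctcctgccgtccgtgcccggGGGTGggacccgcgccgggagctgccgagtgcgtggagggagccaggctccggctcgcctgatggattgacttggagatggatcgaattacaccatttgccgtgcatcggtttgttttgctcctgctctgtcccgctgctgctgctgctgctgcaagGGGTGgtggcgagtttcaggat
SEMA6D start 3: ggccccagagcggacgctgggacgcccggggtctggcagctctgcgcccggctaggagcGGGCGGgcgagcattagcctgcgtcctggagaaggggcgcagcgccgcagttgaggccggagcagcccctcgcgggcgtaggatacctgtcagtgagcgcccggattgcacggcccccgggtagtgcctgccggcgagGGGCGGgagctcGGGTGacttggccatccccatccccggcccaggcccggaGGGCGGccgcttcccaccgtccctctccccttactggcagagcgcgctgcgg
The SEMA6C window held 4 GC boxes and 1 KLF core with a GC content of 71.7%. Of the SEMA6D windows, the first held no GC box, 1 KLF core and 1 E-box at a GC content of 54.7%, the second held no GC box and 4 KLF cores at 70.7%, and the third held 3 GC boxes and 1 KLF core at 74.7%. Over all 35116 promoter windows, 45.0% held a GC box, 59.9% a KLF core and 7.26% an E-box (CACGTG), and the median GC content was 58.7%. Windows were matched for 7 of the 10 members, 17 in all, of which 8 held a GC box, 13 a KLF core and 2 an E-box. Some windows of SEMA3B overlap each other, as do some of SEMA3F, so the 17 are not separate sequences. GTAAACA, read by FOXO factors, was in 1 of the 17 windows against 3.42% of all windows, and GGAATG, read by TEAD factors, in 3 against 14.0%, both strands counted.

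**Figure D1:**
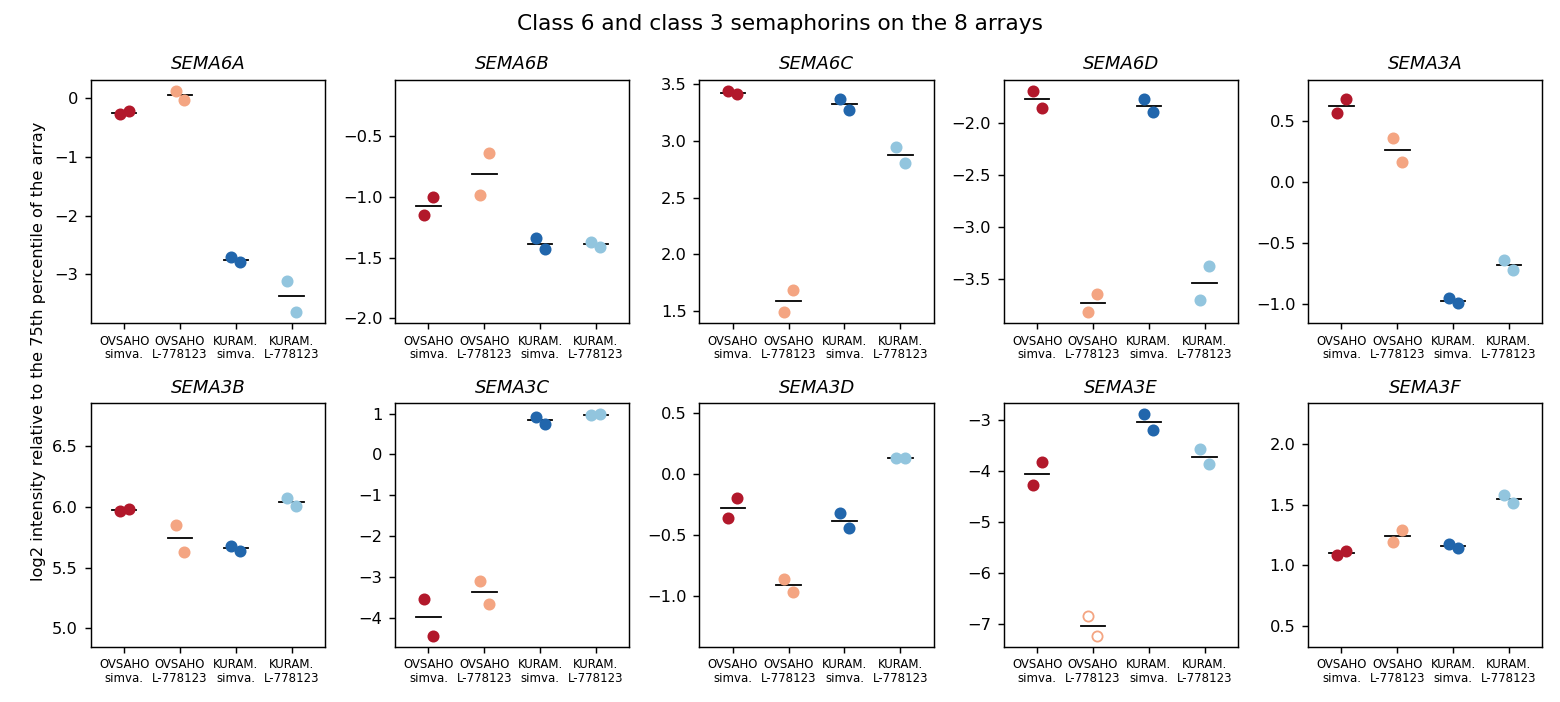
Log2 intensity relative to the 75th percentile of the array (vertical axis, its own range for each gene) on the 8 arrays, by cell line and drug. Points are arrays, bars are group means of 2 arrays, and open points are groups in which the probe was not well above background on either array. For SEMA6D the simvastatin arrays lie between -1.90 and -1.69 and the L-778123 arrays between -3.81 and -3.37.

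SEMA6A, a ligand of plexin-A2 and plexin-A4, differed mainly between the cell lines. Its level in OVSAHO was -0.28 and -0.22 with simvastatin and 0.13 and -0.03 with L-778123. In KURAMOCHI it was -2.71 and -2.80 with simvastatin and -3.11 and -3.64 with L-778123. Every OVSAHO array stood above every KURAMOCHI array. Averaged over the drugs, the log2 difference of OVSAHO from KURAMOCHI was 2.96 (SE 0.12), or 7.80-fold, with an adjusted p of 3.66e-06, and 2.06 with normexp. Between the drugs the log2 differences were -0.30 (SE 0.17, adjusted p = 0.201) in OVSAHO and 0.63 (SE 0.17, adjusted p = 0.0415, 1.54-fold) in KURAMOCHI.

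SEMA6B, a ligand of plexin-A4, did not pass the test between the drugs in either line. Its level in OVSAHO was -1.15 and -1.0 with simvastatin and -0.99 and -0.64 with L-778123, and in KURAMOCHI -1.34 and -1.43 with simvastatin and -1.37 and -1.41 with L-778123. The 4 KURAMOCHI arrays were all below the 4 OVSAHO arrays, with a log2 difference of 0.44 (SE 0.09, adjusted p = 0.00457), or 1.36-fold. The log2 difference between the drugs was -0.26 (95% interval -0.57 to 0.05, adjusted p = 0.140) in OVSAHO and 0.00 (-0.31 to 0.32, adjusted p = 0.985) in KURAMOCHI. A dimmer probe of the gene, above background on 4 arrays, gave 1.04 (SE 0.55, adjusted p = 0.166) in OVSAHO, and the median of both probes turned that difference to 0.39.

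SEMA3E, the class 3 member that binds plexin-D1 without a neuropilin, was measured in 3 of the 4 groups. Its level was -4.29 and -3.83 in OVSAHO with simvastatin, -2.89 and -3.19 in KURAMOCHI with simvastatin, and -3.57 and -3.88 in KURAMOCHI with L-778123. In OVSAHO with L-778123 the probe read -6.84 and -7.23 and was not well above background on either array. The OVSAHO simvastatin level was therefore at least 1.81-fold higher than with L-778123, where the bound takes, for each L-778123 array, the dimmest signal that still passed the background flag. The fit on the values as read gave an adjusted p of 2.71e-04, and the call was lost with dim signals set to that floor, at a log2 difference of 0.86, and with normexp, at 0.59. In KURAMOCHI the log2 difference was 0.68 (SE 0.22, adjusted p = 0.0678), or 1.60-fold. KURAMOCHI was 2.02-fold higher than OVSAHO with simvastatin and at least 2.29-fold higher with L-778123 (adjusted p = 4.17e-05 for the mean over drugs as read). That line difference shrank to -0.44 with normexp and was then not called.

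SEMA3D, a class 3 member with roles in heart and vessel development, had opposite differences in the cell lines. Its level was -0.36 and -0.20 with simvastatin and -0.86 and -0.97 with L-778123 in OVSAHO, and -0.32 and -0.45 with simvastatin and 0.13 and 0.13 with L-778123 in KURAMOCHI. The simvastatin arrays were above the L-778123 arrays in OVSAHO and below them in KURAMOCHI. The log2 differences were 0.63 (SE 0.08, adjusted p = 0.00205) and -0.51 (SE 0.08, adjusted p = 0.00793), both under 2-fold. The difference between these values was 1.15 (SE 0.12, adjusted p = 0.00275) and stayed past the threshold with each array left out.

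SEMA3A, the founding repellent of the class, which binds neuropilin-1, was higher in OVSAHO. Its level was 0.57 and 0.68 with simvastatin and 0.36 and 0.16 with L-778123 in OVSAHO, and -0.96 and -1.0 with simvastatin and -0.64 and -0.72 with L-778123 in KURAMOCHI. All OVSAHO arrays were above all KURAMOCHI arrays, by a log2 difference of 1.27 (SE 0.06), or 2.41-fold, with an adjusted p of 7.09e-06. Between the drugs the log2 differences were 0.36 (SE 0.09, adjusted p = 0.0181) in OVSAHO and -0.29 (SE 0.09, adjusted p = 0.0508) in KURAMOCHI.

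SEMA3B and SEMA3F, neighbors on chromosome 3p that are candidate tumor suppressors, differed by less than 2-fold in every comparison. SEMA3B levels were 5.97 and 5.98 with simvastatin and 5.85 and 5.63 with L-778123 in OVSAHO, and 5.68 and 5.64 with simvastatin and 6.07 and 6.0 with L-778123 in KURAMOCHI. Its log2 differences between the drugs were 0.24 (SE 0.09, adjusted p = 0.0699) in OVSAHO and -0.38 (SE 0.09, adjusted p = 0.0229) in KURAMOCHI, both under 2-fold, and between the lines it was 0.01 (95% interval -0.14 to 0.16). SEMA3F, which acts through neuropilin-2, had levels of 1.08 and 1.12 with simvastatin and 1.19 and 1.29 with L-778123 in OVSAHO, and 1.18 and 1.15 with simvastatin and 1.58 and 1.51 with L-778123 in KURAMOCHI. The KURAMOCHI L-778123 arrays were above the other 6 arrays. The log2 difference of SEMA3F between the drugs was -0.14 (SE 0.06, adjusted p = 0.109) in OVSAHO and -0.38 (SE 0.06, adjusted p = 0.00746) in KURAMOCHI, under 2-fold in both. In the RefSeq gene order 3 protein-coding genes lie between SEMA3F and SEMA3B.

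SEMA3C, which binds both neuropilins and takes part in forming the cardiac outflow tract, was far lower in OVSAHO. Its level was -3.54 and -4.44 with simvastatin and -3.10 and -3.67 with L-778123 in OVSAHO, where 1 of the 2 simvastatin arrays was not well above background. In KURAMOCHI the level was 0.92 and 0.75 with simvastatin and 0.97 and 0.98 with L-778123. The groups of the cell lines did not overlap, and the log2 difference of OVSAHO from KURAMOCHI was -4.59 (SE 0.23), or 24.1-fold, with an adjusted p of 7.87e-06, and -2.92 with normexp. Between the drugs the OVSAHO arrays overlapped, with a log2 difference of -0.60 (95% interval -1.40 to 0.20, adjusted p = 0.174), and in KURAMOCHI it was -0.14 (-0.94 to 0.66, adjusted p = 0.774). Without OVSAHO simvastatin replicate 1 the OVSAHO difference was -1.06 and was called, with the remaining simvastatin array the one not well above background. SEMA3A, SEMA3C, SEMA3D and SEMA3E lie on 1 chromosome, with no protein-coding gene between SEMA3E and SEMA3A or between SEMA3A and SEMA3D, and of these 4 genes SEMA3A was higher in OVSAHO while SEMA3C and SEMA3E were higher in KURAMOCHI.

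**Figure D2:**
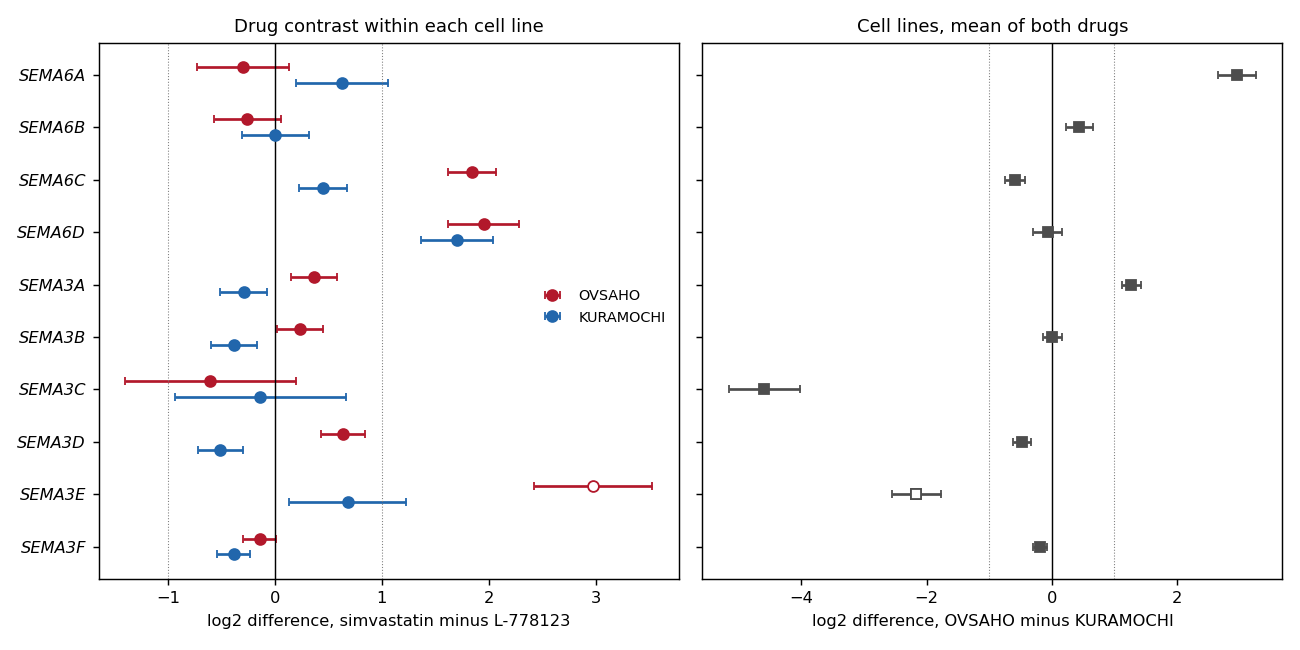
Log2 differences with 95% intervals from limma for the 10 genes, simvastatin minus L-778123 in each cell line (left) and OVSAHO minus KURAMOCHI over both drugs (right). Dotted lines mark 2-fold, and the open symbols of SEMA3E rest on arrays where the probe was not well above background. SEMA6D is to the right of 2-fold in both lines, at 1.95 and 1.70.

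Counted over the members, the drug contrast called 1 of 10 in KURAMOCHI (SEMA6D, with the limit on its choice given above), where 5.60% of all 33753 tested probes were called at an adjusted p under 0.05 and at least 2-fold. In OVSAHO it called 1 of the 8 members not chosen by that contrast (SEMA3E), against 11.0% of all probes. Without the fold threshold the counts were 6 of 10 in KURAMOCHI against 31.4%, and 3 of 8 in OVSAHO against 48.1%. These counts of 1 gene each are close to the share of all probes. The size of the drug contrast differed between the lines for 5 of these 8 members at an adjusted p under 0.05 (SEMA6A, SEMA3A, SEMA3B, SEMA3D and SEMA3E), against 22.9% of all probes. The difference was positive for 4 of them and negative for SEMA6A, against 11.2% and 11.7% of all probes. For SEMA6A this difference of -0.93 lost its call when any array but the KURAMOCHI L-778123 pair was left out (-1.0 to -0.85, adjusted p up to 0.124). The call on SEMA3A, at 0.66, was lost without OVSAHO simvastatin replicate 2 (0.60), KURAMOCHI simvastatin replicate 2 (0.64) or KURAMOCHI L-778123 replicate 1 (0.62). The call on SEMA3B, at 0.62, was lost without either simvastatin array of OVSAHO or of KURAMOCHI (0.59 to 0.64) or without KURAMOCHI L-778123 replicate 1 (0.58). For SEMA3E the difference of 2.30 was 0.18 with dim signals at the floor and 0.26 with normexp, neither of which was called.

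Between the cell lines 4 of 10 members were called (SEMA6A and SEMA3A higher in OVSAHO, SEMA3C and SEMA3E higher in KURAMOCHI), against 33.7% of all probes, 17.5% higher and 16.1% lower in OVSAHO. Without the fold threshold the count was 8 of 10 against 77.7%. SEMA6D levels did not separate the lines, with a log2 difference of -0.07 (95% interval -0.30 to 0.17, adjusted p = 0.557). This value is tied to the study's choice of the gene for a ratio near 1 with simvastatin. SEMA6C (-0.59, adjusted p = 2.67e-04), SEMA3D (-0.47, adjusted p = 5.42e-04) and SEMA3F (-0.18, adjusted p = 0.00940) were lower in OVSAHO on average by less than 2-fold, with overlapping arrays. The summed linear level of 4 fibroblast markers was lower in OVSAHO, at 0.0696 to 0.0893 of the 75th percentile against 2.40 to 3.25 in KURAMOCHI. The sum of the leukocyte markers went the other way, at 1.65 to 2.03 in OVSAHO against 0.951 to 1.07 in KURAMOCHI. Sums for epithelium, for endothelium, and for neurons and glia overlapped between the lines. None of the 4 fibroblast markers was above background on all arrays and DCN was on none. The part of any of these markers in the line differences was not tested.

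Of the 7 receptors of these ligands, 4 were called lower in OVSAHO than in KURAMOCHI, where 16.1% of all probes were. That count is a description, since NRP1, NRP2 and PLXNA2 entered the test only through KURAMOCHI, where they were brighter. PLXND1 did not depend on the filter in this way. The line difference was positive for the brightest probe of the other 3 receptors, though further probes of PLXNA4 gave negative values. Between the drugs in OVSAHO 1 of 7 was called, close to the 11.0% of all probes. NRP1, the neuropilin that binds SEMA3A, had levels of -3.84 and -4.57 with simvastatin and -4.97 and -4.58 with L-778123 in OVSAHO, where it was well above background on 1 array of each pair, and 0.21, 0.20, 0.57 and 0.56 in the same order in KURAMOCHI. The log2 line difference was -4.87 (SE 0.18), or 29.3-fold, with an adjusted p of 2.21e-06. NRP2, the neuropilin that binds SEMA3F, was not well above background on any OVSAHO array and was at least 4.73-fold higher in KURAMOCHI with simvastatin and at least 7.09-fold with L-778123 (adjusted p = 9.59e-06 over both drugs). PLXNA2, a receptor of SEMA6A, was likewise not above background in OVSAHO and at least 6.95-fold and 8.01-fold higher in KURAMOCHI (adjusted p = 3.27e-04). PLXND1, the receptor of SEMA3E, had levels of 0.23, 0.18, -0.72 and -0.68 in OVSAHO and 3.34, 3.33, 3.14 and 3.05 in KURAMOCHI, a log2 difference of -3.46 (SE 0.04), or 11.0-fold, with an adjusted p of 8.94e-08. These are the 4 called between the lines. NRP1, NRP2 and PLXNA2 passed the filter only through KURAMOCHI, where they were brighter, so their p-values are descriptions. PLXNA1 and PLXNA3 were higher in OVSAHO by less than 2-fold, with log2 differences of 0.72 (adjusted p = 2.31e-05) and 0.45 (adjusted p = 2.83e-04).

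PLXNA3, the plexin that transmits SEMA3F signals with neuropilin-2, was the receptor called between the drugs. Its level in OVSAHO was 4.43 and 4.39 with simvastatin and 3.15 and 3.19 with L-778123, and in KURAMOCHI 3.63, 3.50, 3.07 and 3.16 in the same order. The log2 difference was 1.24 (SE 0.07, adjusted p = 1.05e-04), or 2.36-fold, in OVSAHO and 0.45 (SE 0.07, adjusted p = 0.00631) in KURAMOCHI. PLXND1 also differed between the drugs in OVSAHO, by 0.90 (SE 0.06, adjusted p = 1.81e-04), under 2-fold. PLXNA1, the receptor of SEMA6D, had levels of 4.80 and 4.79 with simvastatin and 5.08 and 5.03 with L-778123 in OVSAHO and 3.98, 3.84, 4.49 and 4.51 in KURAMOCHI, the direction opposite to SEMA6D in both lines, with log2 differences of -0.26 (adjusted p = 0.0207) and -0.59 (adjusted p = 0.00216). PLXNA4, a receptor of SEMA6A and SEMA6B, had log2 differences between the drugs of 0.85 (adjusted p = 0.00475) and 0.55 (adjusted p = 0.0344). Its probes disagreed on the line difference, at 0.11 for the brightest and -2.31 for the other one that was well above background on all arrays. Probes of PLXNA4 that were well above background only in KURAMOCHI gave -4.98 and -3.33. For NRP1 the log2 difference between the drugs in OVSAHO was 0.56 (adjusted p = 0.112), and its other probe was not well above background on any OVSAHO array. In KURAMOCHI the NRP1 probes had opposite directions, at -0.36 (adjusted p = 0.314) for the brightest and 0.52 (adjusted p = 0.307) for the other. Neither was called.

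**Figure D3:**
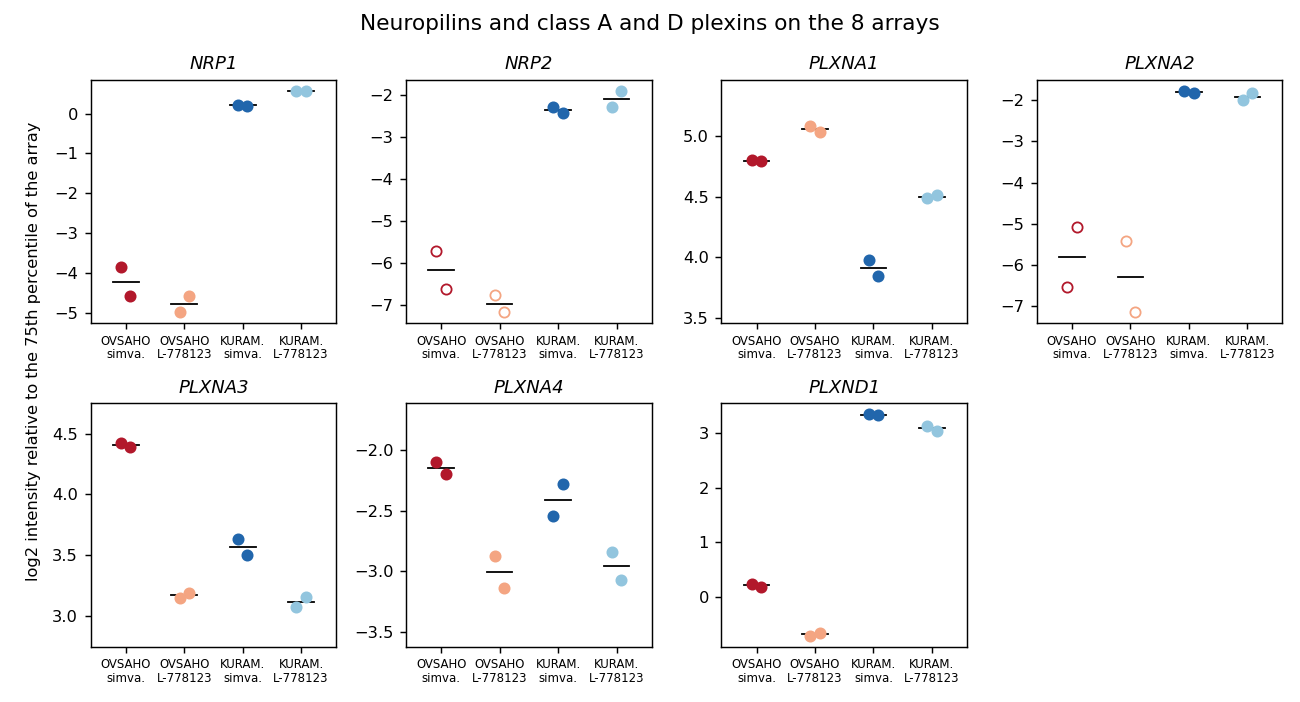
Log2 intensity relative to the 75th percentile of the array (vertical axis, its own range for each gene) of the neuropilins and the class A and D plexins on the 8 arrays. Points are arrays, bars are group means of 2 arrays, and open points are groups in which the probe was not well above background on either array. NRP1, NRP2, PLXNA2 and PLXND1 are lower in OVSAHO.

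Across the wider pathway, 61 further genes were counted (receptors, other plexins, other semaphorins, intracellular mediators, and processing enzymes with co-receptors and growth factors that bind neuropilins), of which 57 were tested. In OVSAHO 8 were called higher with simvastatin and 3 lower, against 4.77% and 6.19% of all probes, and the median log2 difference was 0.24 against 0.01 over all probes. In KURAMOCHI limma called 0 higher and 2 lower, against 2.05% and 3.55%, with a median of 0.06 against 0.00. The counts include PLXNB3 in OVSAHO and DPYSL5 in KURAMOCHI, which passed the filter only through the group where each was brighter. At an unadjusted p under 0.05 with no fold threshold, 19 were higher and 11 lower in KURAMOCHI. The share of all probes at that threshold was not counted, so these counts are a description. The analysis of variance with Tukey's test called 0 higher. With an array left out, 1 gene was called higher in KURAMOCHI in each of 3 cases, named here after their values were seen. These were PGF (1.07 without L-778123 replicate 1), PCSK6 (1.22 without L-778123 replicate 2, well above background on 1 array of each KURAMOCHI group) and RHOD without simvastatin replicate 2, which was not well above background on any KURAMOCHI array.

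Among the 10 other semaphorins, SEMA5A, a transmembrane member with thrombospondin repeats, was lower with simvastatin in both lines. Its level was 2.34 and 2.29 with simvastatin and 5.01 and 5.06 with L-778123 in OVSAHO, and -0.62, -0.58, 0.56 and 0.50 in KURAMOCHI. The log2 differences were -2.72 (SE 0.06, adjusted p = 1.28e-05) and -1.13 (SE 0.06, adjusted p = 2.55e-04), the opposite direction to SEMA6D, and with normexp the value in KURAMOCHI was -0.94 and was not called. SEMA7A, which is anchored to the membrane by a lipid, was also lower with simvastatin in OVSAHO, at -1.5 and -1.53 against 0.46 and 0.23 with L-778123, a log2 difference of -1.86 (SE 0.09, adjusted p = 8.19e-05). In KURAMOCHI it had -0.40 (adjusted p = 0.0267). SEMA5B, the relative of SEMA5A, was higher with simvastatin in OVSAHO by 1.31 (SE 0.06, adjusted p = 6.66e-05) and by 0.29 in KURAMOCHI (adjusted p = 0.0175), while with normexp the value in OVSAHO was 0.97 and was not called. Its other probe was not well above background on any OVSAHO array. The remaining 7 were not called in either line.

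Of 23 tested intracellular mediators, 4 were called higher with simvastatin in OVSAHO, against 4.77% of all probes. DPYSL3, a CRMP family protein that relays semaphorin signals to the cytoskeleton, had levels of 1.07 and 1.22 with simvastatin and -1.16 and -1.07 with L-778123 in OVSAHO and 4.92, 4.83, 4.75 and 4.76 in KURAMOCHI. Its log2 difference was 2.26 (SE 0.08, adjusted p = 2.96e-05) in OVSAHO and 0.12 (adjusted p = 0.287) in KURAMOCHI. MICAL1, a monooxygenase that oxidises actin downstream of plexins, differed by 1.93 (SE 0.11, adjusted p = 1.18e-04) in OVSAHO and -0.11 (adjusted p = 0.510) in KURAMOCHI. FYN, a kinase that acts at class A plexins, differed by 1.54 (adjusted p = 6.94e-05), and RRAS, the GTPase that plexins switch off, by 1.13 (adjusted p = 2.19e-04) in OVSAHO, against 0.20 and 0.01 in KURAMOCHI. DPYSL5, another CRMP, was called in KURAMOCHI, at least 1.83-fold lower with simvastatin, where it was not well above background (adjusted p = 0.00296). Its probe passed the filter only through KURAMOCHI with L-778123, the brighter group, so this p-value is a description. The call was lost with a floor, at a log2 difference of -0.87, with normexp, at -0.23, and by Tukey's test. At any fold 16 of the 23 mediators passed the adjusted p in OVSAHO, against 48.1% of all probes.

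In the remaining lists PLXNB3, a receptor of SEMA5A, was dim and differed by 1.28 (SE 0.38, adjusted p = 0.0374) in OVSAHO, with 1 L-778123 array not well above background. Its probe passed the filter only through OVSAHO with simvastatin, the brighter group, so this p-value is a description. The PLXNB3 call was lost without OVSAHO simvastatin replicate 1 (0.76), without OVSAHO L-778123 replicate 1 (1.04) or replicate 2 (1.52), and without either KURAMOCHI L-778123 array (1.28), as well as with normexp (0.51), no filter and Tukey's test. VEGFD, a ligand of VEGFR-3, was higher with simvastatin in OVSAHO by 1.52 (SE 0.12, adjusted p = 3.49e-04), and its receptor FLT4 had a log2 difference of -1.18 (SE 0.19, adjusted p = 0.00402). In KURAMOCHI VEGFD differed by 0.15 (adjusted p = 0.405), and FLT4, not well above background with simvastatin, was at least 1.23-fold lower there as a bound (adjusted p = 0.153, not called). The FLT4 call was lost without OVSAHO simvastatin replicate 2 (-0.89), with normexp (-0.50) and by Tukey's test, and the VEGFD call with normexp (0.83).

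**Figure D4:**
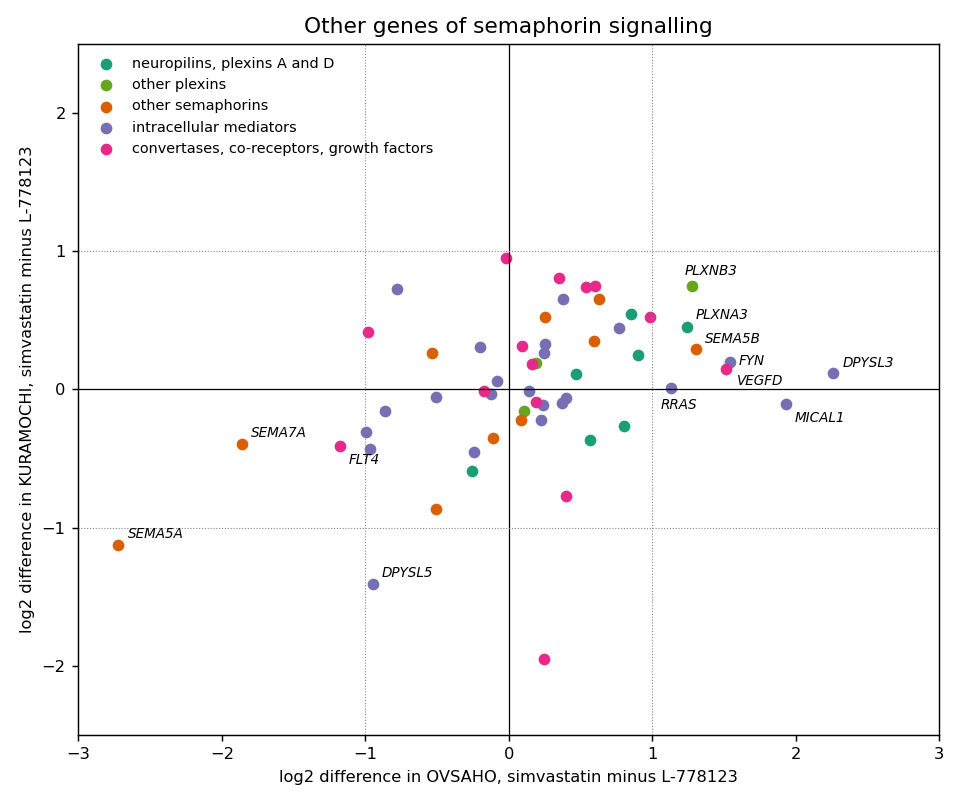
Log2 difference of simvastatin minus L-778123 in OVSAHO (horizontal axis) and KURAMOCHI (vertical axis) for the 57 tested pathway genes, colored by list. Dotted lines mark 2-fold and the genes called in either line are named. SEMA5A is at -2.72 and -1.13 and DPYSL3 at 2.26 and 0.12.

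The genes whose pattern was most like that of SEMA6D over the 8 arrays, among 16941 other genes, were TCAP (Pearson r = 0.991), YPEL3 (0.986) and PLK5 (0.985). Their log2 differences between the drugs were 0.70, 1.36 and 1.07 in OVSAHO and 0.76, 0.99 and 1.01 in KURAMOCHI. Those most like SEMA6C were KIF3C (0.995), CNNM4 (0.993) and EPHA4 (0.993), with log2 differences of 0.96, 0.52 and 3.63 in OVSAHO and 0.16, 0.10 and 0.85 in KURAMOCHI. The 8 arrays share 4 groups, so these correlations describe the group pattern and carry no p-value.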

How the data were processed

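The authors extracted the scanned images with Agilent Feature Extraction 11.5.1.1. The scanner files used here hold spot intensities with background subtracted and no normalization between arrays, with flags per spot. Control and outlier spots were left out, the spots of a probe were averaged, and each log2 value was taken relative to its array's 75th percentile. Probes that passed the background flag in at least 1 whole group, 33753 in all, were tested with limma 3.58.1 in R 4.3.3 (1 mean per group, Benjamini-Hochberg adjustment over all tested probes). Calls needed an adjusted p under 0.05 and at least 2-fold, also between the lines. For the difference of drug contrasts between the lines they needed the adjusted p alone. Symbols came from RefSeq accessions of GRCh38.p14, a later assembly than that of the array design, and 24782 of 50096 identifiers were named. No column of per-sample values was left unmapped. On data simulated for OVSAHO simvastatin against L-778123, with 200 of 33753 probes changed, the test recovered 83% with 6 false calls. The planted changes were all above 2-fold, with normal noise, and far fewer than the 3700 probes called in the real contrast. These rates therefore do not measure the test on the real data or on smaller differences. Named were all members, the receptors, any list gene called between the drugs, and the 3 genes most alike. The members and lists were chosen with earlier results of these data known. Alternatives were no filter and a stricter one, normexp (offset 50) on median spot intensity, quantile normalization, the table of the authors, scaling on bright probes, a floor, only the groups compared, a replicate block, the analysis of variance with Tukey's test named in the methods, other folds, the median of the probes per gene, and each array left out. Probe and protein sequences were not used here.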

Additional observations from a re-analysis of the deposited data

Results flagged for a closer look

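The drug contrast, simvastatin minus L-778123, differed between OVSAHO and KURAMOCHI by the interaction term in limma for 5 of the 8 members tested and for 22 of 57 tested pathway genes (13 higher and 9 lower), against 22.9% of all probes. The pathway genes given below are those named in the report, most of which were named because they were called between the drugs. All of the following values are differences of log2 differences, OVSAHO minus KURAMOCHI. Of the members, SEMA3E had 2.30 (adjusted p = 0.00637, resting on 2 arrays not well above background), SEMA3D 1.15 (adjusted p = 0.00275), SEMA3A 0.66 (adjusted p = 0.0167), SEMA3B 0.62 (adjusted p = 0.0199) and SEMA6A -0.93 (adjusted p = 0.0457). For SEMA3D, SEMA3A and SEMA3B the sign of the drug contrast was positive in OVSAHO and negative in KURAMOCHI, and for SEMA6A the reverse. Of the receptors, PLXNA3 had 0.79 (adjusted p = 0.00494) and PLXND1 0.66 (adjusted p = 0.00532). Among other semaphorins, SEMA5A had -1.59 (adjusted p = 4.06e-04), SEMA7A -1.47 (adjusted p = 0.00185) and SEMA5B 1.01 (adjusted p = 0.00152). The mediators DPYSL3 and MICAL1 had 2.14 (adjusted p = 4.02e-04) and 2.04 (adjusted p = 0.00119), FYN and RRAS 1.34 (adjusted p = 0.00114) and 1.12 (adjusted p = 0.00245), and the growth factor VEGFD 1.37 (adjusted p = 0.00499). Groups of 2 arrays are too small to test single arrays as outliers.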

How the results depend on the processing

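Of 712 values of the 40 member results under an alternative, 664 kept their direction and their side of the threshold, or moved by less than the spread, 23 lost a call, 1 gained one, 11 moved and 13 reversed. Many of these values could not change direction. The filters, the replicate block, the fit of only the groups compared and Tukey's test reuse the same log2 difference. Leaving out an array of 1 line does not change the drug difference in the other. Counts of calls over all probes were nearly the same with the authors' table as with quantile normalization. In OVSAHO these were 1592 higher and 2051 lower against 1589 and 2052, so these settings are not separate checks. The reversed values were all under 2-fold in the main fit. With the median over probes, SEMA6B went from -0.26 to 0.39 for the drug contrast in OVSAHO. Its difference of drug contrasts went from -0.26 to 0.26. For the drug contrast in KURAMOCHI, SEMA6B was 0.0037 in the main fit (range -0.044 to 0.052 with an array left out). It was -0.044 and -0.017 without simvastatin replicate 1 or L-778123 replicate 2. SEMA6D for OVSAHO minus KURAMOCHI went from -0.065 to 0.017 without KURAMOCHI L-778123 replicate 2 (range -0.15 to 0.017). SEMA3B for OVSAHO minus KURAMOCHI was 0.0085 in the main fit (range -0.048 to 0.065). It was -0.0020 with normexp, and -0.17 with quantile normalization and with the authors' table. Without OVSAHO L-778123 replicate 1 it was -0.048. It was -0.0017 and -0.0086 without KURAMOCHI simvastatin replicate 2 or L-778123 replicate 2. With normexp SEMA3C went from -0.60 to 0.026 in OVSAHO and from -0.47 to 0.16 for the difference of drug contrasts.

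Members called in OVSAHO (1) numbered 0 with the stricter filter, normexp or a floor, 2 at 1.5-fold, 3 with no fold threshold and 1 to 2 with an array left out. In KURAMOCHI (1) they numbered 0 with normexp, 2 at 1.5-fold and 6 with no fold threshold. Members that differed between lines in the drug contrast (5) numbered 2 without a filter and 2 to 5 with an array left out, and members called between the lines (4) numbered 2 with the stricter filter and 8 with no fold threshold. Pathway genes higher in OVSAHO (8) numbered 5 with normexp, 15 at 1.5-fold, 21 with no fold threshold and 7 to 10 with an array left out, and those lower (3) numbered 9, 11 and 2 to 5 for the last 3 settings, the highest without OVSAHO simvastatin replicate 1 or L-778123 replicate 2. In KURAMOCHI those higher (0) numbered 5, 16 and 0 to 1 for the same settings, and those lower (2) numbered 4, 9 and 2 to 3, with 1 under the stricter filter or Tukey's test and 0 with normexp. Calls over all 33753 probes rose as well. In OVSAHO they numbered 3672 higher and 4347 lower at 1.5-fold, and 7756 higher and 8466 lower with no fold threshold. The counts in KURAMOCHI were 1821 higher and 2713 lower, then 4741 higher and 5847 lower. The cause of the changed counts was not tested, beyond the fewer or more probes that a filter or threshold admits. Without a filter the median log2 difference of all probes in OVSAHO was 0.21.

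Replicate numbers did not pair the arrays (correlation of deviations 0.00085 to 0.056 over 6 pairs of groups). With the replicate block the members called stayed at 1 in OVSAHO, 1 in KURAMOCHI, 5 between lines in the drug contrast and 4 between the lines, and over all probes the difference of drug contrasts had 3189 higher and 3244 lower calls against 3791 and 3940.

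With 2 arrays a group, the number of arrays limits the precision, and probes near background, such as those of SEMA3E, SEMA3C in OVSAHO, and NRP2 and PLXNA2 in OVSAHO, have only bounds or wide intervals.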
